A study of Ictidomys tridecemlineatus with 15 samples.

Results

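The 9 genes described here encode transcription factors that set and keep hepatocyte identity, namely Hnf4a, Nr5a2, Foxa1, Foxa2, Foxa3, Cebpa, Cebpb, Onecut1 and Prox1. They were taken by symbol from the gene-body units of a GRO-seq count table for liver of the 13-lined ground squirrel, Ictidomys tridecemlineatus. Of the 9 symbols asked for, 9 had a unit among the 6324 units of the table. For 6 of them the unit carries 1 gene name, whereas Foxa3, Cebpb and Prox1 lie in units that the authors merged with other annotations. The unit of Foxa3 also carries an annotation of U4 small nuclear RNA, that of Cebpb the locus LOC106144883, and that of Prox1 the model G39023, so counts in these 3 units cannot be divided among the names.

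Global run-on sequencing (GRO-seq) lets polymerases that are already on a gene in an isolated nucleus run on with a labelled base. The reads therefore show polymerases engaged on genes at collection rather than RNA abundance. For torpor the authors posit that initiation and termination stop while elongation goes on at a much lower rate. All animals were laboratory-housed, colony-bred females carrying body temperature transmitters, with no genetic change or drug treatment named in the labels, and the nuclei came from frozen whole liver. SA animals (summer active, n = 3) were homeothermic ahead of the hibernation season. IBA animals (interbout aroused, n = 3) were warm between torpor bouts, Ent animals (entrance, n = 3) were cooling into torpor, and ET (early torpor, n = 3) and LT (late torpor, n = 2) animals were cold. A further LT library, removed by the authors as an outlier, was not analysed here. Ages are not given in the sources used here.

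Hepatocyte identity factors form a network in which the members bind regulatory DNA of shared target genes and of one another. Foxa proteins open compact chromatin for other factors, Hnf4a and Nr5a2 are nuclear receptors that activate metabolic and bile acid genes, and Cebpa and Cebpb are leucine zipper factors of metabolism and the acute phase response. Onecut1 and Prox1 are homeodomain factors that act in the growth of the embryonic liver and in adult metabolism.

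The libraries held 3713883 to 8884763 counted reads in all, and single libraries held from 148 to 13589 reads on a factor's unit. Values below are CPM, in which counts are divided by the TMM-scaled size of the library and multiplied by a constant, a level relative to all other transcription in the same library, and RPKM where levels of different genes are compared, which divides by unit length as well. The animals were collected in 3 seasons, called A, B and C here. ET libraries make up season B alone, both LT libraries are from season A, the IBA libraries are from season C, and SA and Ent libraries come from A and C. Season therefore cannot be told apart from state in any comparison with ET. IBA and LT libraries share no season either, so their comparison rests on SA and Ent libraries once season is a term. The 4 sequential steps share libraries with each other and with the comparison of warm (SA and IBA) with cold (ET and LT) animals, so they are not independent of it.

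Across the torpor cycle most of these factors were transcribed at lower levels in the cold. From SA and IBA to ET and LT, 5 of the 9 units fell past an adjusted p of 0.001 (Hnf4a, Nr5a2, Foxa1, Foxa3 and Onecut1) and none rose past it, by edgeR's quasi-likelihood F-test, adjusted over all units by Benjamini-Hochberg. Among all 6324 units, 36.3% passed in either direction and 17.6% fell. At an adjusted p of 0.05, 7 of 9 fell, with Cebpa and Prox1 added, beside 33.7% of all units. The median log2 fold change was -1.10 over the 9 factors and -0.04 over all units. Together the 9 units took 0.307% to 0.407% of all counts in the 6 SA and IBA libraries, 0.318% to 0.376% in Ent and 0.211% to 0.238% in the 5 ET and LT libraries. Foxa2 was the factor with a positive log2 fold change, 0.30, which did not pass either threshold. In whole liver a smaller share of hepatocyte nuclei and a smaller share of transcription on these genes within each nucleus cannot be told apart. CPM does not show total transcription, which the authors describe from earlier work as nearly ceasing at the low body temperature of torpor. Absolute levels in ET and LT, also that of Foxa2, therefore cannot be read from these values.

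**Figure D1:**
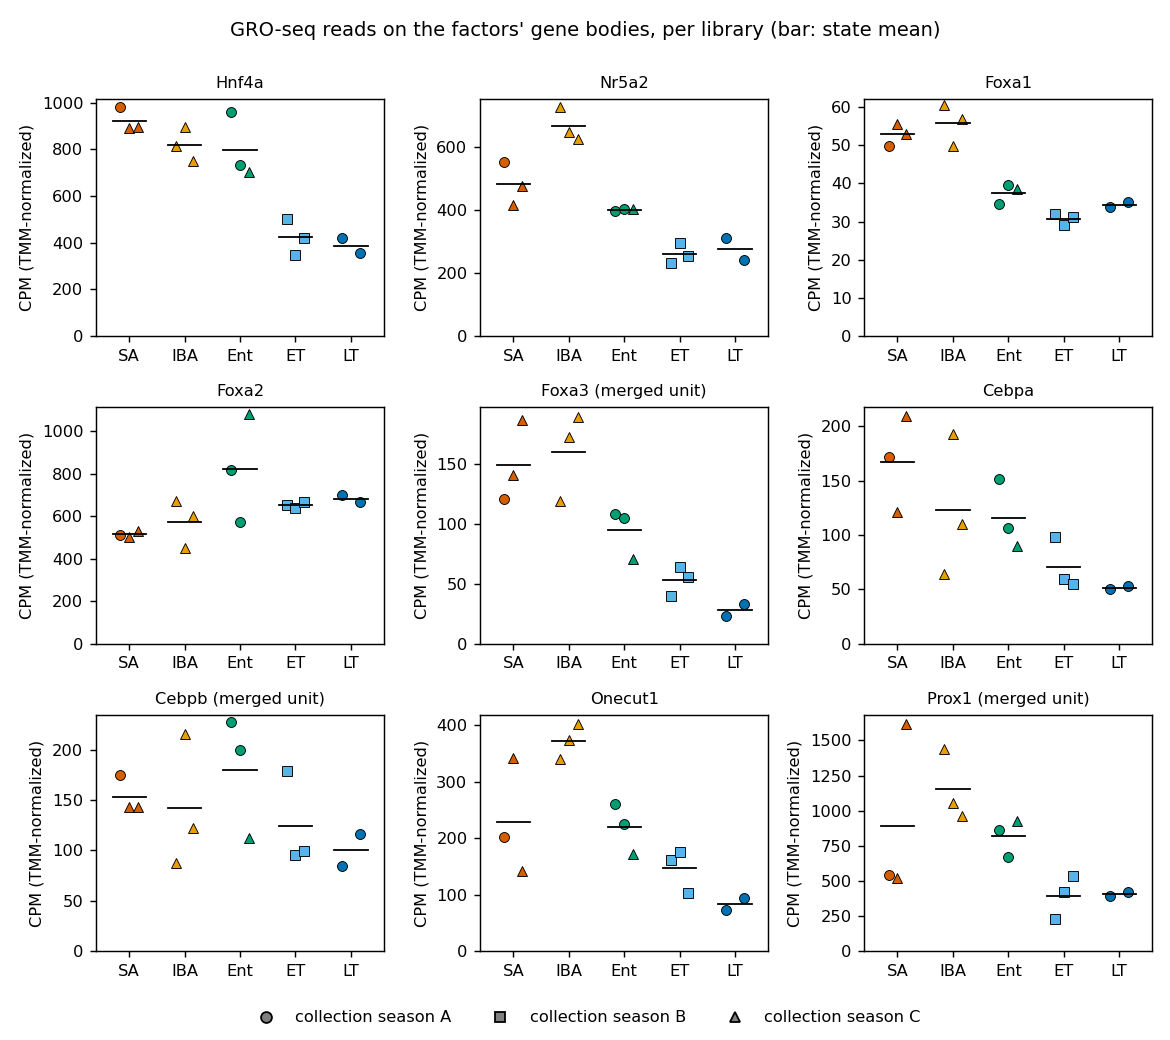
CPM on the unit of each factor in 14 libraries, by state (x axis), on linear axes that start at 0. Points are libraries, their shape gives the season of collection, and bars are state means. In Hnf4a, Nr5a2, Foxa1 and Foxa3 every ET and LT point lies below every SA and IBA point, whereas those of Foxa2 overlap.

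Both nuclear receptors were lower in the cold. Hnf4a, the receptor that holds together much of the hepatocyte program, occupies a unit of 29851 nt at 180880995 to 180910845 of Itri5 (plus strand, HiC_Itri_2 assembly). Its level was 983, 889.5 and 895 CPM in SA, 813, 894 and 751 in IBA, 958, 732 and 703 in Ent, 502, 346 and 419.9 in ET, and 419 and 354 in LT. All 9 libraries of SA, IBA and Ent were above all 5 of ET and LT, and the 3 warmer states overlapped one another. The cold level was 0.465 of the warm level, a log2 fold change of -1.10 with standard error 0.13 (edgeR, adjusted p = 1.1e-05). Of the 4 steps, that between Ent and ET passed 0.05, where the log2 fold change was -0.92 with standard error 0.17 (edgeR, adjusted p = 0.0022), and ET and LT overlapped.

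Nr5a2, also called liver receptor homolog 1, which drives bile acid and cholesterol genes, has 2 pieces on the minus strand of Itri9 that together span 74839638 to 74978051 and hold 130702 nt. It stood at 554, 417 and 476 CPM in SA, 728, 648 and 625 in IBA, 397, 404 and 403 in Ent, 232, 295 and 253 in ET, and 309.9 and 240.2 in LT. Every IBA library was above every SA library, every SA library above every Ent library, and every Ent library above every ET and LT library. The difference of IBA over SA, 0.47 on the log2 scale with standard error 0.15, had an adjusted p of 0.081 in edgeR. Ent was lower than IBA, with a log2 fold change of -0.73 and standard error 0.15 (edgeR, adjusted p = 0.0076), and ET lower than Ent, with -0.63 and standard error 0.15 (edgeR, adjusted p = 0.0074). The Ent libraries of Nr5a2 lay below those of IBA, whereas for Hnf4a they overlapped, and the difference between these 2 genes was not tested. Over the whole span from warm to cold the log2 fold change was -1.08 with standard error 0.11 (edgeR, adjusted p = 4.3e-06).

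The 3 Foxa genes, whose forkhead proteins are close relatives with overlapping roles in liver, are described in turn. Foxa1 has a unit of 11218 nt on Itri5 (48017701 to 48028918, minus strand) and the lowest mean CPM of the 9 in SA, IBA, Ent and ET. It had 49.9, 55.6 and 53.1 CPM in SA, 60.5, 49.7 and 57.0 in IBA, 34.6, 39.6 and 38.5 in Ent, 32.0, 29.1 and 31.3 in ET, and 33.7 and 35.1 in LT. The warm libraries were all above those of Ent, ET and LT, and Ent overlapped LT but not ET. Ent differed from IBA by a log2 fold change of -0.57 with standard error 0.13 (edgeR, adjusted p = 0.013), and cold from warm by -0.74 with standard error 0.10 (edgeR, adjusted p = 3.1e-05).

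Foxa2, which is also the forkhead factor of the fasting and bile acid response in adult liver, lies in a unit of 45562 nt on Itri5 (149546545 to 149592106, plus strand). Its values were 513, 500.1 and 532 CPM in SA, 669, 449 and 600.4 in IBA, 815, 573 and 1082 in Ent, 654, 637 and 666 in ET, and 698 and 666 in LT. The ET and LT libraries lay close together, all above the 3 SA libraries and within the joint range of IBA and Ent, and Ent replicate 3 was the highest of the 14. None of the 8 tests of Foxa2 passed an adjusted p of 0.05. Ent differed from IBA by 0.52 on the log2 scale with standard error 0.20 (edgeR, adjusted p = 0.095), and cold from warm by 0.30 with standard error 0.15 (edgeR, adjusted p = 0.10). Scaled to uniquely mapped reads in place of TMM, the latter was 0.52 with an adjusted p of 0.011 in edgeR and the former 0.68 with 0.042, while for the latter the median of all units moved from -0.04 to 0.18. Over 24 alternatives its adjusted p ranged from 0.011 to 0.22 and its log2 fold change from 0.22 to 0.64.

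Foxa3, the forkhead gene most restricted to endoderm-derived tissue such as liver, is in a merged unit of 13842 nt on Itri16 (17849686 to 17863527, plus strand). The unit had 121, 141 and 187 CPM in SA, 119.6, 173 and 189.8 in IBA, 108, 106 and 70.6 in Ent, 39.8, 64.4 and 55.7 in ET, and 22.8 and 33.6 in LT. The ranges of Ent, ET and LT stepped down without overlap, each below the joint range of SA and IBA. The cold level was 0.25 of the warm level, the largest fall among the 9, at a log2 fold change of -2.0 with standard error 0.20 (edgeR, adjusted p = 3.9e-06). The step between Ent and ET was -0.83 on the log2 scale with standard error 0.26 (edgeR, adjusted p = 0.028). The further step to LT, at -0.92 with standard error 0.30, did not pass (edgeR, adjusted p = 0.30).

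**Figure D2:**
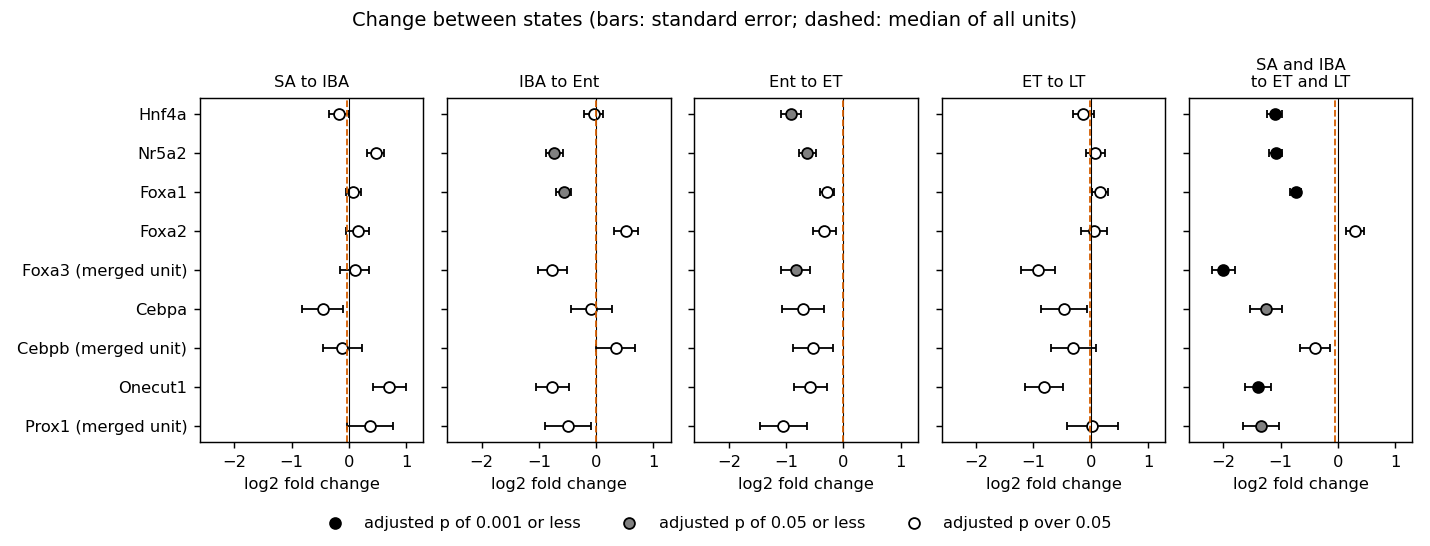
Log2 fold change of each factor (x axis) at the 4 sequential steps and from SA and IBA to ET and LT, with the standard error as a bar and the median of all 6324 units as a dashed line. In the last panel 8 of 9 points are below 0 and Foxa2 alone is above it.

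The CCAAT-binding factors spread widely among the IBA animals. Cebpa, which drives gluconeogenic and urea cycle genes and restrains hepatocyte division, has a unit of 7428 nt on Itri16 (9124394 to 9131821, minus strand). Its level was 172, 121 and 209.7 CPM in SA, 64.2, 193 and 110.3 in IBA, 151, 106 and 89.8 in Ent, 98.5, 59.3 and 54.6 in ET, and 49.9 and 52.7 in LT. IBA replicate 1 fell within the ET range, and the SA libraries were all above those of ET and LT. From warm to cold it changed by -1.25 on the log2 scale with standard error 0.28 (edgeR, adjusted p = 0.0016). It passed 0.001 without IBA replicate 1 (-1.40, adjusted p = 0.00037, edgeR) or without ET replicate 1 (-1.41, adjusted p = 0.001, edgeR), and in DESeq2 (adjusted p = 3e-05), where 48.3% of all units passed 0.001. Its adjusted p ranged from 3e-05 to 0.026 over 24 alternatives.

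Cebpb, an acute phase and stress-induced partner of Cebpa, is in a merged unit of 18948 nt on Itri5 (188841473 to 188860420, minus strand). The unit had 174, 143 and 143 CPM in SA, 87.2, 215 and 122 in IBA, 228, 199 and 112 in Ent, 178, 95.3 and 99.3 in ET, and 85.0 and 117 in LT. The ranges of all neighbouring states overlapped, and IBA alone spanned more than the difference between the warm and cold means. Its log2 fold change between warm and cold, -0.40 with standard error 0.26, did not pass (edgeR, adjusted p = 0.20). In IBA both Cebpa and Cebpb were lowest in replicate 1 and highest in replicate 2, and in Ent both were lowest in replicate 3.

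Onecut1 and Prox1 spread widely among the SA animals. Onecut1 (HNF6), which acts beside Foxa2 and Hnf4a at liver genes, has a unit of 58279 nt on Itri5 (96674523 to 96732801, minus strand). It had 202, 342 and 142 CPM in SA, 339.6, 374 and 402 in IBA, 261, 225 and 172 in Ent, 162, 176 and 103 in ET, and 73.16 and 93.8 in LT. The SA libraries reached from the ET range to the IBA range, and both LT libraries were below all others. IBA over SA, 0.70 on the log2 scale with standard error 0.29, had an adjusted p of 0.17 in edgeR. LT was lower than IBA by a log2 fold change of -2.16 with standard error 0.35 (edgeR, adjusted p = 0.00034), and cold lower than warm by -1.40 with standard error 0.22 (edgeR, adjusted p = 0.00014). Without LT replicate 1 the latter was -1.31 with an adjusted p of 0.0019 in edgeR, within a range of 5.4e-09 to 0.0061 over 24 alternatives.

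Prox1, an early marker of the hepatic lineage that also represses bile acid synthesis genes, is in a merged unit of 64567 nt on Itri9 (62165656 to 62230222, minus strand). The unit had 542, 523 and 1615 CPM in SA, 1439.7, 1054 and 962 in IBA, 865, 671 and 928 in Ent, 229, 425 and 535 in ET, and 391 and 419 in LT. SA replicate 3 had the highest value of the 14, and the 2 other SA libraries were below all IBA and Ent libraries and within or just beside the ET range. All IBA and Ent libraries were above all ET and LT libraries. Cold differed from warm by a log2 fold change of -1.34 with standard error 0.31 (edgeR, adjusted p = 0.0023), and ET from Ent by -1.05 with standard error 0.41 (edgeR, adjusted p = 0.07). The former passed 0.001 in DESeq2 (adjusted p = 3.7e-05) and had an adjusted p of 0.27 in edgeR with season as a term and LT as the cold side.

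The whole cycle was also tested across the 5 states at once. In this test 4 of the 9 units passed an adjusted p of 0.001 (Nr5a2, Foxa3, Hnf4a and Foxa1), beside 25.5% of all units, and 7 passed 0.05, beside 62%. From IBA, the warm state within the hibernation season, to LT, 4 units fell past 0.001 (Foxa3, Nr5a2, Onecut1 and Hnf4a), beside 7.73% of all units that fell and 17.4% that passed in either direction. In Foxa3 the log2 fold change was -2.51 with standard error 0.32 (edgeR, adjusted p = 6.1e-05), in Nr5a2 -1.28 with standard error 0.17 (edgeR, adjusted p = 8.8e-05) and in Hnf4a -1.08 with standard error 0.19 (edgeR, adjusted p = 0.00063). At 0.05, 7 of 9 fell, beside 25% of all units. With season as a term and without ET, 0 of 9 passed 0.001 from IBA to LT in edgeR, beside 199 of all 6324 units. Without that term, the count at 0.001 changed when single animals were left out. It was 1 without LT replicate 1 (Nr5a2), 1 without LT replicate 3 (Foxa3), and 2 without IBA replicate 2 or without IBA replicate 3. Over the fits with each library left out in turn, 242 to 1220 of all 6324 units passed, against 1102 with all libraries.

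At single steps no factor passed 0.001 in edgeR. From SA to IBA 2 of 9 had an unadjusted p under 0.05 (Nr5a2 and Onecut1, both higher in IBA), beside 22% of all units, and 0 passed an adjusted p of 0.05, beside 5.22% of all units at 0.05 and 0.0158% at 0.001. In DESeq2 0 passed 0.001 at this step, beside 3.5% of all units, and 1, Nr5a2, passed 0.05 (adjusted p = 0.028), beside 10.9%. From IBA to Ent 5 of 9 had an unadjusted p under 0.05, beside 32.5% of all units, and Foxa1 and Nr5a2 passed an adjusted p of 0.05, beside 16.1% of all units at 0.05 and 0.0316% at 0.001. From Ent to ET 5 had an unadjusted p under 0.05, beside 40.5% of all units, and Hnf4a, Nr5a2 and Foxa3 passed 0.05, beside 28.8% of all units at 0.05 and 2.21% at 0.001. All 9 log2 fold changes were negative at that step, as were those of 51.1% of all units. In DESeq2, Foxa1 and Nr5a2 passed 0.001 from IBA to Ent, beside 7.07% of all units in DESeq2, and Hnf4a and Nr5a2 from Ent to ET, beside 14.8%. Between ET and LT 0 passed 0.05, 2 had an unadjusted p under 0.05 (Foxa3 and Onecut1, both lower in LT), beside 8.7% of all units at the unadjusted p, 0.269% at an adjusted p of 0.05 and 0% at 0.001. In DESeq2 0 passed 0.001 there, beside 0.585% of all units. From Ent to LT 6 had an unadjusted p under 0.05, beside 39.8% of all units, and Hnf4a, Foxa3, Onecut1 and Nr5a2 passed 0.05, all lower, beside 27% of all units at 0.05 and 2.29% at 0.001. In DESeq2, 3 of these passed 0.001 (Foxa3, Hnf4a and Onecut1), beside 14.3% of all units in DESeq2.

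The libraries were also compared by whether the groups overlapped. From warm to cold, 4 of 9 units had every cold library below every warm library (Hnf4a, Nr5a2, Foxa1 and Foxa3), beside 19.5% of all units. From IBA to LT it was 7 of 9, beside 38.6%, with Foxa2 and the Cebpb unit as the 2 that overlapped.

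The season of collection was examined where the libraries allow. SA and IBA libraries were compared within season C, and Ent and LT libraries within season A. In each of these 0 of all units, and so 0 of the 9 factors, passed 0.001. With season as an added term and LT alone as the cold side, an alternative chosen after the data were seen, 0 of 9 passed 0.001 in edgeR, beside 6.31% of all units, 6 passed 0.05, beside 42.4%, and 8 had an unadjusted p under 0.05, beside 51%. Foxa3 then had a log2 fold change of -2.49 (adjusted p = 0.0012, edgeR), Onecut1 of -1.87 (adjusted p = 0.0061), Hnf4a of -1.29 (adjusted p = 0.0014) and Nr5a2 of -1.12 (adjusted p = 0.0018). Cebpa had -1.68 (adjusted p = 0.026, edgeR) and Foxa1 the smallest of the 6, -0.54 (adjusted p = 0.033, edgeR). Within season A, SA replicate 1 can be set beside both LT libraries, and a test then has to assume that SA animals vary as the LT pair does, so the values are given alone. The log2 fold change in that set was -2.08 for Foxa3, -1.72 for Cebpa, -1.32 for Hnf4a, -1.25 for Onecut1, -0.99 for Nr5a2, -0.77 for Cebpb, -0.51 for Foxa1, -0.40 for Prox1 and 0.43 for Foxa2. All 9 had the direction of the full comparison.

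Levels per unit length put Hnf4a first among the 9 in SA, IBA and Ent. In SA the order by mean RPKM was Hnf4a at 30.9 ± 1.75 (SD, n = 3), Cebpa at 22.5 ± 6.01, Prox1 at 13.8 ± 9.67, Foxa2 at 11.3 ± 0.353, Foxa3 at 10.8 ± 2.43, Cebpb at 8.09 ± 0.970, Foxa1 at 4.71 ± 0.254, Onecut1 at 3.93 ± 1.77 and Nr5a2 at 3.69 ± 0.526. Neighbours from Cebpa down to Cebpb, and from Foxa1 down to Nr5a2, had overlapping intervals of mean ± SD. In LT Foxa2 came first with 15.0 ± 0.502 RPKM (SD, n = 2), Hnf4a second with 13.0 ± 1.53, and Onecut1 last with 1.43 ± 0.251, while Foxa3 stood in the eighth place with 2.04 ± 0.549, after the fifth in SA. The intervals of Foxa2 and Hnf4a overlapped in LT. For many genes the authors extended the unit downstream, to the furthest stretch called in any state. They also reported polymerases beyond gene ends in torpor. What such reads and the extended lengths add to these levels, to the CPM changes and to the ratios below was not tested.

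**Figure D3:**
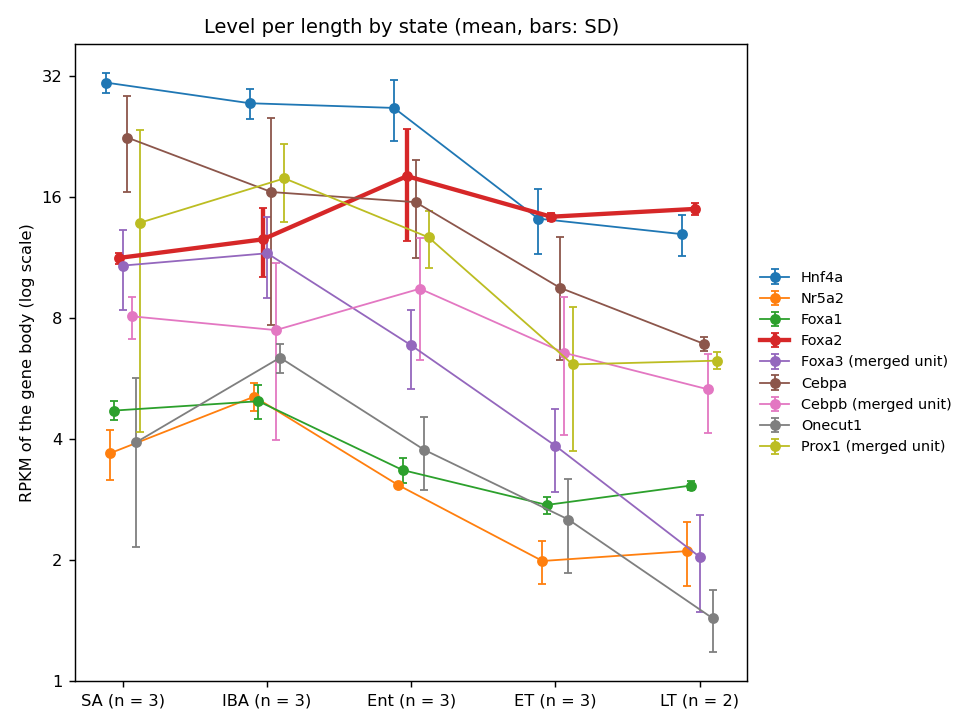
Mean RPKM of each factor's unit (y axis, log scale) in the 5 states, with the SD over libraries as a bar. The Foxa2 line, drawn thick, meets that of Hnf4a in ET at 14.3 against 14.2 RPKM and lies above it in LT.

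Foxa2 and Hnf4a were also set against each other within each library. In RPKM the ratio of Foxa2 to Hnf4a was 0.342, 0.368 and 0.389 in SA, 0.539, 0.330 and 0.524 in IBA, 0.558, 0.513 and 1.01 in Ent, 0.853, 1.20 and 1.04 in ET, and 1.09 and 1.23 in LT. All cold libraries had a higher ratio than all warm ones, and Ent replicate 3 reached the cold range. The ratio was chosen after the values were seen and is given as a description. Other ratios to Hnf4a went in both directions. The median ratio of the Cebpb unit was 0.255 in SA and IBA and 0.433 in ET and LT, and that of Foxa1 0.162 and 0.214, with overlapping ranges in both. The ratio of Nr5a2 lay between 0.107 and 0.204 in SA and IBA and between 0.106 and 0.194 in ET and LT. That of the Foxa3 unit went from 0.266 to 0.545 in the warm to 0.118 to 0.401 in the cold. In SA and IBA the median ratio was 0.647 for Cebpa, 0.206 for Onecut1 and 0.569 for the Prox1 unit. In ET and LT these medians were lower, at 0.598, 0.136 and 0.547, and the ranges overlapped.

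The units most like each factor were found by Pearson correlation of log2 CPM over the 14 libraries among all other single-gene units. It is a description of libraries that fall into warm and cold sets and share their depth, and carries no test. Hnf4a was most like Pax8 (r = 0.976), a paired-box factor known from thyroid, and the stress-induced Nupr1 (r = 0.972), whose own log2 fold changes from warm to cold were -2.49 and -3.16. Nr5a2 was most like Grb14 (r = 0.977), an inhibitor of insulin receptor signaling, and the unit CYP2C18_like_gene16228 (r = 0.971). Foxa1 was most like Adat1 (r = 0.972) and Sh3pxd2a (r = 0.962), Cebpa most like Znf219 (r = 0.941) and the sphingosine kinase Sphk2 (r = 0.93), and Onecut1 most like G20363 (r = 0.942) and the ribosomal protein gene Rps24 (r = 0.937). Foxa2 had no unit so close. Its nearest were the citrate transporter Slc13a5 (r = 0.772) and Tnks (r = 0.767), with log2 fold changes of 1.60 and 0.43 from warm to cold.

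Other liver transcription factors and coregulators moved in both directions. Of 57 such genes listed, 28 had a single-gene unit and 24 were in merged units. Among the 28, 3 rose and 8 fell past 0.001 from warm to cold, beside 18.6% and 17.6% of all units, and their median log2 fold change was -0.08 against -0.07 over 4705 single-gene units. The largest rise was that of Atf5, a stress-responsive leucine zipper factor, from 88.2 to 268 CPM in SA and IBA to 593 to 898 in ET and LT (log2 fold change 2.18, standard error 0.17, adjusted p = 5.9e-07, edgeR). Stat5b, which carries the growth hormone signal, had a log2 fold change of -1.50, the xenobiotic receptor Nr1i2 (PXR) of -1.22, Onecut2, the close relative of Onecut1, of -1.08, Foxo3, which acts downstream of insulin, of -1.02, and Gata6, an endodermal zinc finger factor, of -0.93. These 5 had adjusted p-values between 2.5e-06 and 0.00016 in edgeR. For Foxo3 the SA libraries were at 1539.9 to 1838 CPM and all others at or below 1037.

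Textbook hepatocyte genes bound or driven by these factors were lower in the cold for the most part. Of 45 listed, 26 had a single-gene unit and 12 were in merged units. From warm to cold 13 of the 26 fell and 1 rose past 0.001, beside 17.6% of all units that fell and 18.6% that rose. The median log2 fold change of the list was -1.50. The secreted proteins Ttr (transthyretin) and Apoh fell, with log2 fold changes of -2.25 (standard error 0.22, adjusted p = 2.8e-06, edgeR) and -1.95 (standard error 0.24, adjusted p = 1.7e-05, edgeR). Ttr went from 656 to 1126 CPM in SA and IBA to 145 to 262 in ET and LT. Tat, which degrades tyrosine, had a log2 fold change of -3.47, and Slc10a1, the sodium-dependent bile acid importer, of -2.21, with adjusted p-values of 4.4e-06 and 3.3e-06 in edgeR.

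CYP7A1 and CYP8B1, of bile acid synthesis, had the 2 largest log2 falls of the 26. CYP7A1, the rate-limiting enzyme, had 136, 7.15 and 158 CPM in SA, 10.2 to 13.7 in IBA, and 0 to 1.98 in Ent, ET and LT together. CYP8B1, which steers synthesis to cholic acid, had 209, 21.2 and 174 CPM in SA, 19.0 to 23.6 in IBA, 20.6 to 35.2 in Ent and 0.982 to 3.33 in ET and LT. Both had SA replicate 2 far below the 2 other SA libraries, and their log2 fold changes from warm to cold were -6.21 (standard error 0.88, adjusted p = 5.4e-05, edgeR) and -4.54 (standard error 0.55, adjusted p = 1.6e-05, edgeR). The single-gene unit named Tf fell as well (log2 fold change -1.11, standard error 0.12, adjusted p = 7.2e-06, edgeR). A second, merged unit carries the same symbol, so which of them is transferrin is uncertain.

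**Figure D4:**
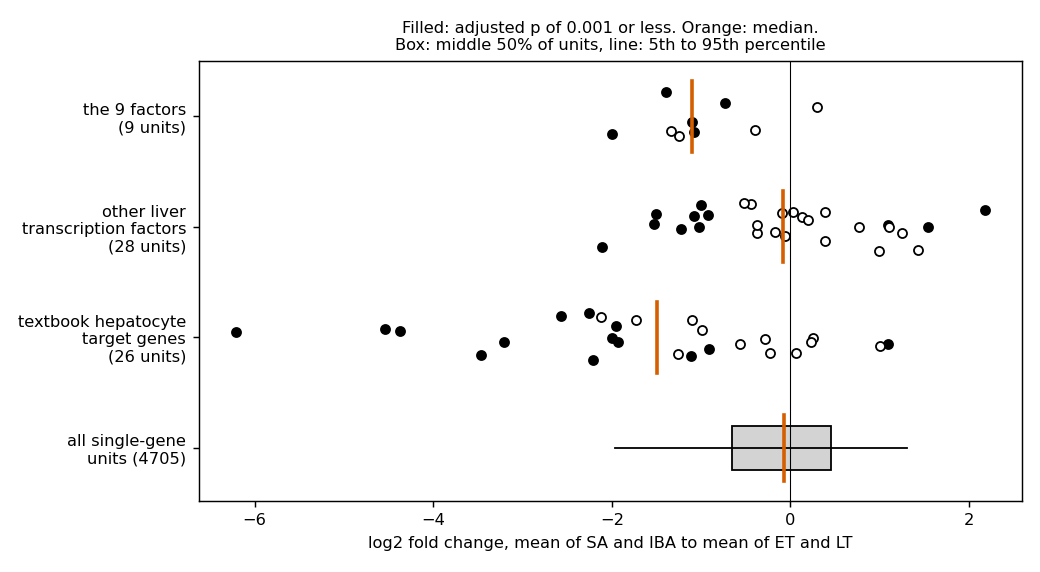
Log2 fold change from SA and IBA to ET and LT (x axis) of the 9 factors, 28 other liver factors, 26 target genes and, as a box, all 4705 single-gene units. Filled points passed an adjusted p of 0.001 and orange lines are medians, which lie at -1.10, -0.08, -1.50 and -0.07.

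As a check of the labelled tissue, all 5 hepatocyte markers with a single-gene unit (Apob, Ttr, Tf, Cps1 and Fgb) were counted throughout. Their summed level was 7831 to 19269 CPM in SA and IBA, 6390.3 to 7481 in Ent and 3341 to 6568 in ET and LT, and 3 of the 5 fell past 0.001 while Apob (log2 fold change -0.23, adjusted p = 0.22, edgeR) and Cps1 (-2.12, adjusted p = 0.0015, edgeR) did not pass. The Tf unit counted here may not be transferrin, since the merged unit TF:Srprb carries the same symbol. That merged unit fell as well (-2.27, adjusted p = 4.5e-06, edgeR). Of 8 endothelial markers, 3 had a single-gene unit (Pecam1, Kdr and Stab1), with a sum of 186 to 241 CPM in SA and IBA and 124 to 203 in ET and LT, and Kdr fell past 0.001 (-0.86, adjusted p = 0.00094, edgeR), while Pecam1 (-0.68, adjusted p = 0.0091, edgeR) and Stab1 (0.39, adjusted p = 0.067, edgeR) did not pass it and had opposite signs. Of the cholangiocyte markers, Sox9 had 16.5 to 41.0 CPM in SA and IBA and 7.07 to 18.1 in ET and LT, and fell past 0.001 (-1.33, adjusted p = 0.00046, edgeR). No macrophage, stellate or leukocyte marker had a single-gene unit, so those cells were not examined. The part that a change in cell makeup has in the factors' values was not tested.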

How the data were processed

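GRO-seq libraries of 14 female squirrels were analysed. The authors trimmed reads with cutadapt, aligned them with BWA to HiC_Itri_2, kept uniquely aligned reads, redefined gene bodies with fstitch, merged overlapping genes, dropped the first 500 nt and counted reads with featureCounts. Tool versions and the strand setting are not given in the sources used here. What they deposited are unnormalized counts of reads, with the length of each unit. The symbols, gene lists and named-gene rules were chosen with earlier results of these data known. Named were all 9 factors, the 2 most correlated units of each factor with its own unit, up to 8 genes per list with the smallest p across states at 0.001, and markers with a single-gene unit. A few of these are not reported here.

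All 6324 units were fitted together in edgeR 4.0.16 (R 4.3.3) with TMM normalization and a quasi-likelihood model of the 5 states, without a filter, and p-values were adjusted by Benjamini-Hochberg at 0.001, the threshold of the study. Log2 CPM used a prior count of 2. DESeq2 1.42.0 was an alternative, and figures used matplotlib 3.10.9 in Python 3.11.15. Each library is 1 animal, so the tests set differences between states against the spread between animals. IBA, ET and LT each come from a single season, so for them variation between seasons is not covered. On simulated counts for the comparison of warm with cold over 6324 units, 78% of 100 units changed by 1 on the log2 scale and 100% of 100 changed by 2 were recovered. Total counts were 3713883 to 8884763 per library. LT replicate 2 was not analysed here. Sequences were not used here.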

Additional observations from a re-analysis of the deposited data

How the results depend on the processing

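Over all alternatives, 0 of the factors' log2 fold changes that are given changed direction. The number of the 9 factors past 0.001 depended on the tool and the threshold. In DESeq2 it was 2 between IBA and Ent, 2 between Ent and ET and 3 between Ent and LT, against 0 in edgeR. At an adjusted p of 0.05 it was 7 among the 5 states, 2 between IBA and Ent, 3 between Ent and ET, 7 between IBA and LT and 4 between Ent and LT. With season as a term and without ET it was 0 among the remaining 4 states and 0 from IBA to LT, and with LT as the cold side 0 from warm to cold. The cause was not tested. With each library left out in turn it ran from 1 to 4 from IBA to LT, from 3 to 5 among the 5 states and from 4 to 6 from warm to cold. In these fits the number of all units past 0.001 ran from 242 to 1220, from 1085 to 1598 and from 1610 to 2297.

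The number of all units past 0.001 varied more. It was 1612 among the 5 states with a range of 1085 to 3164 over the other settings that compare the same groups, 1102 and 199 to 2016 from IBA to LT, 2293 and 1610 to 3054 from warm to cold, 140 and 0 to 937 from Ent to ET, and 145 and 0 to 903 from Ent to LT. From SA to IBA it was 1 and 0 to 221, from IBA to Ent 2 and 0 to 447, and from ET to LT 0 and 0 to 37. With season as a term and without ET it was 78 among the remaining 4 states and 199 from IBA to LT. It was 399 from warm to cold with LT as the cold side. Scaling to uniquely mapped reads moved the median log2 fold change of all units by 0.23 from warm to cold, 0.18 from IBA to LT, 0.15 at the step into Ent and 0.12 at that into ET. Under it Hnf4a from IBA to LT had a log2 fold change of -0.90 and an adjusted p of 0.0011 in edgeR, within a range of 3.6e-07 to 0.012 over 24 alternatives.

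Replicate numbers do not pair the animals. Deviations of same-numbered libraries from their state means correlated between -0.263 and 0.234 over 26 pairs, and 3 of 14 libraries correlated best with one of their own number. With the replicate block 3 factors passed 0.001 among the 5 states, 4 from IBA to LT and 5 from warm to cold. Of all 6324 units, 1187, 785 and 2018 passed in these comparisons. With 2 or 3 libraries per state, changes in the more variable factors could be missed, also some above 1 on the log2 scale. Prox1 from Ent to ET, at -1.05, had an adjusted p of 0.07 in edgeR. Cebpa from Ent to LT, at -1.17, had 0.054 in edgeR.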

Other observations

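The units beside the factors moved apart from them in places. Hnf4a has a neighbour 4070 nt upstream on the other strand, the merged unit G29983:G29982, with a log2 fold change from warm to cold of 0.29 (adjusted p = 0.35, edgeR), and 3198 nt downstream on its own strand the unnamed unit G29980, with -2.67 (adjusted p = 7.6e-05, edgeR). Foxa3 starts 1942 nt from the merged unit Rsph6a:Sympk on the other strand, which had a log2 fold change of 0.32 (adjusted p = 0.038, edgeR). Foxa2 stands alone, with its nearest units 743688 nt upstream (Gzf1) and 1057553 nt downstream (Xrn2). Whether the counting used strand is not given in the sources used here, so reads of closely spaced units on opposite strands may not be fully separated.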
